A study of Homo sapiens with 18 samples.

Results

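The genes described here are 34 genes of the unfolded protein response of the endoplasmic reticulum (ER), out of 55765 gene symbols counted in each series. They were chosen by gene name, and the list was drawn up with earlier results of these libraries known, so the number of members that moved is a description and not independent evidence. All 34 passed the filter on low counts in each comparison. RNA was sequenced from OVCAR3, an established cell line of high-grade serous ovarian carcinoma, grown in RPMI medium with little serum. A first series held cells given IgA (titled IgA_Coated) or IgG (titled IgG_Coated) of no set antigen specificity, and cells given none (Untreated). A second held cells given IgA against BDNF (OVCAR3-BDNF), a secreted neurotrophin, IgA against TSPAN7 (OVCAR3-TSPAN7), a tetraspanin, or no antibody (OVCAR3-Untreated), and these antibodies came from immortalised B cells of tumours. The labels give the dose as 0.5 µg/ml and the time as 24 h, while the study's supplementary data describe a shorter incubation, and each of the 6 groups had 3 libraries. The question was how ovarian cancer cells respond to IgA, which pIgR, the receptor for dimeric IgA, carries across epithelial cells.

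Proteins that enter the secretory pathway fold in the ER with the help of chaperones, lectins and disulfide enzymes. When unfolded protein accumulates, HSPA5 (BiP) leaves the lumenal side of the membrane sensors ATF6, IRE1 (gene ERN1) and PERK (gene EIF2AK3). ATF6 is then cut to a transcription factor, IRE1 splices XBP1 mRNA, and PERK slows translation while ATF4 protein is made. Their targets enlarge the folding machinery and the ER-associated degradation pathway, which returns misfolded protein to the cytosol. Secretory cells such as plasma cells keep much of this programme on without external stress. Gene counts measure the amount of mRNA and neither the splicing of XBP1 nor the cleavage of ATF6.

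Depth lay between 27920733 and 42371474 counts per library for the first series, and between 39254350 and 47381836 for the second. Mitochondrial genes took 19.1% of the counts of IgA replicate 3, while its 8 companions held 5.75% to 8.32% and the second series 8.60% to 10.2%. The 3 IgA libraries of the first series differed more from each other (chi-square per degree of freedom 67.0 to 232 between pairs) than replicates of any other group did (3.91 to 25.0). All 10 epithelial and serous ovarian markers, such as PAX8, WT1 and EPCAM, were detected in every library. Their summed CPM (counts scaled to library size) in the first series was 4685 to 5875 with IgA, 5155 to 6375 with IgG and 5217 to 6725 in untreated cells. Single markers varied to different degrees in that series, PAX8 from 16861 to 26003 counts and WT1 from 692 to 6330. The 9 plasma and B cell markers summed to at most 34 counts (range 8 to 34, and 5 to 18 for the second series), with IGHA1 and IGHA2 at 0 throughout. Their sum was 8 to 30 counts with IgA and 8 to 34 with IgG or in untreated cells of that series. Summed markers of T, NK and myeloid cells lay between 0.824 and 2.72 CPM in the first series. Summed fibroblast and endothelial markers were at 80.9, 69.0 and 110.4 CPM in IgA replicates 1, 2 and 3, and between 63.7 and 73.2 in the other first-series libraries. Most of this sum came from COL1A1 (580 to 1065 counts) and COL1A2 (1404 to 2237 counts). PDGFRB and DCN had at most 7 counts, CDH5 at most 40 and VWF at most 57 in that series. The part of these markers in the results was not tested. In bulk RNA, more transcript per cell and more cells that carry the transcript cannot be told apart.

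With IgA the unfolded protein response genes rose together, led by the ER chaperone HSPA5 and the degradation factor HERPUD1. Against IgG, 28 of the 34 members were called higher at an adjusted p under 0.05 and 0 were called lower (edgeR quasi-likelihood test, Benjamini-Hochberg over all 18012 genes tested). Of all genes tested, 12.6% were called higher and 11.6% lower. Against untreated cells of the same series 28 members were again called higher and 0 lower, where 12.9% of all genes were called higher and 12.1% lower. The same IgA libraries enter both comparisons, and 26 members were called in each of them. The median log2 fold change of the members was 0.73 against IgG and 0.72 against untreated cells, while the median of all genes was −0.01 in each. All 3 IgA libraries lay above all 3 IgG libraries for 32 members and below them for 0, as they did for 19.7% and 20.6% of all genes tested. Against untreated cells they lay above for 30 members and below for 0, where 19.8% and 20.1% of all genes did. At least a 2-fold rise over IgG was fitted for 10 members, and for 5.36% of all genes. Leaving out IgA replicate 3 left 30 members called against IgG and 29 against untreated cells.

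**Figure D1:**
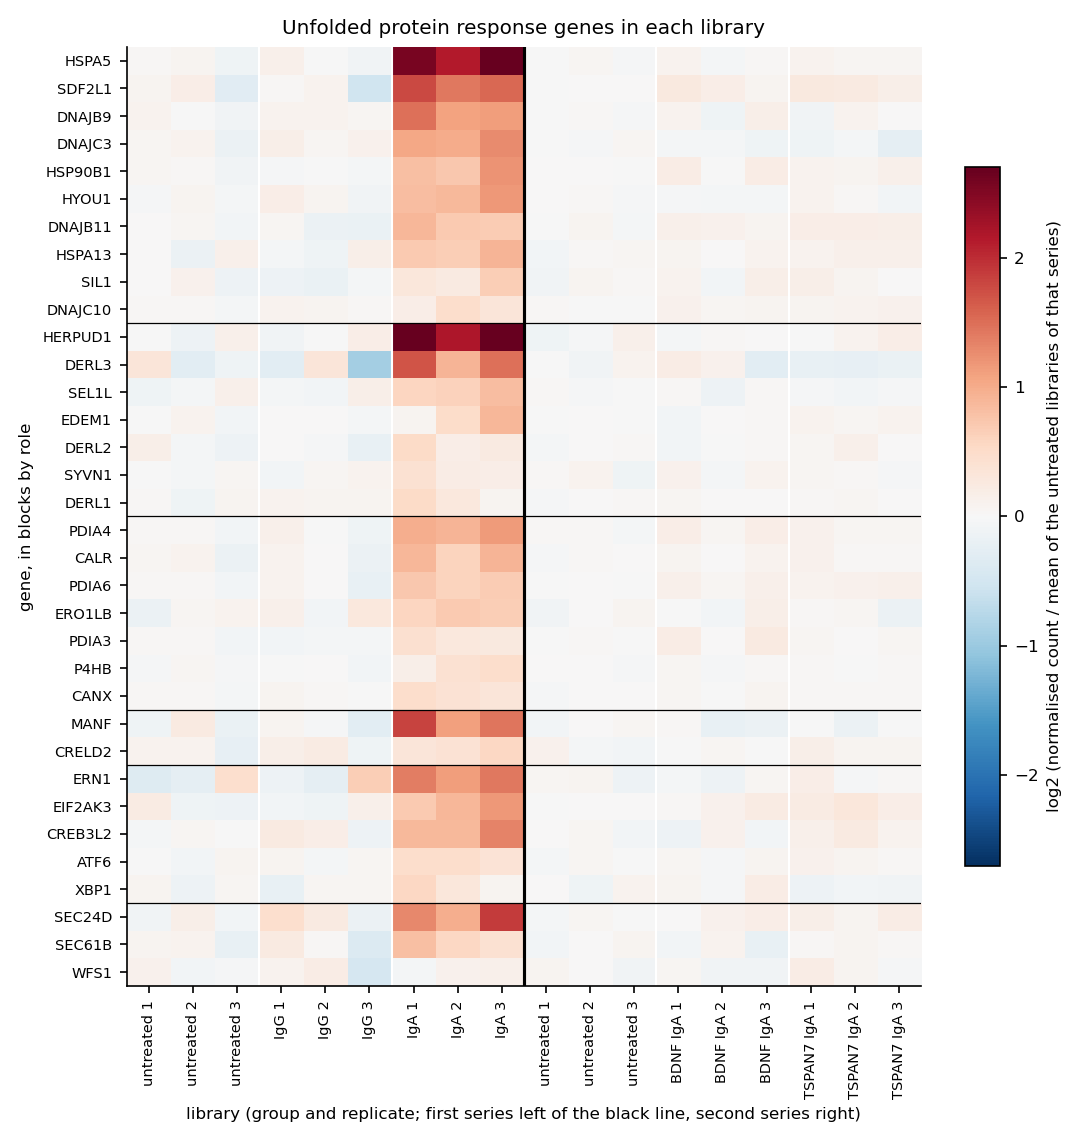
Each row is a member and each column a library, with colour giving the log2 ratio of its normalised count to the mean of the untreated libraries of the same series. The 3 IgA columns of the first series stand out in red, deepest for HSPA5 and HERPUD1, while IgG and the 6 columns of BDNF and TSPAN7 IgA stay close to 0.

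The members took up a larger share of all RNA counted. They held 0.672% to 0.747% of all counts in the 6 untreated and IgG libraries of the first series and 1.13% to 1.21% in the 3 IgA libraries. HSPA5 alone went from between 0.0517% and 0.0633% to between 0.237% and 0.293%. Without HSPA5 the members still held 0.855% to 0.923% of the counts with IgA, against 0.621% to 0.684% in the other 6 libraries. Per kilobase of transcript, HSPA5 was the seventh most abundant member in untreated cells, at 4859 ± 330 normalised counts per kilobase (SD, n = 3). With IgA it reached 27109.9 ± 5010 and was the second, after CALR at 28893 ± 3342, and these neighbours differed by less than their SDs.

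**Figure D2:**
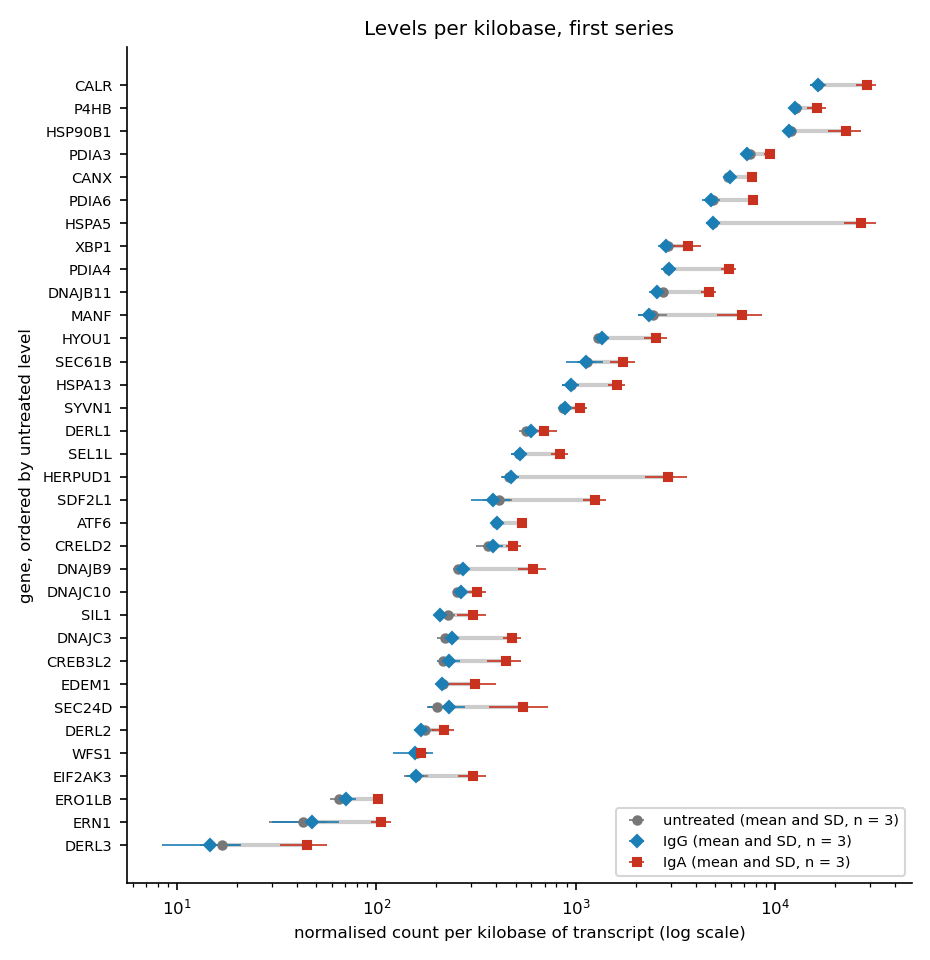
Levels of the 34 members in the first series, as normalised counts per kilobase of transcript on a log scale, with mean and SD of 3 libraries. The grey bars join untreated cells to IgA and are longest for HSPA5 (4859 to 27109.9) and HERPUD1, while IgG and untreated symbols lie over each other.

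HSPA5 (GRCh37 chr9:127997132-128003661, minus strand), the ATP-dependent chaperone of the ER lumen, had 112098, 84406 and 122390.0 normalised counts in the IgA libraries. In the IgG libraries it had 20897, 18919.6 and 17902, and in untreated cells 19361, 20160.4 and 17631. The IgA libraries lay far above all others, and IgG and untreated libraries overlapped. The log2 fold change against IgG was 2.47 (SE 0.141, 95% interval 2.16 to 2.77, adjusted p = 2.85e-07), or 5.52-fold.

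HERPUD1 (GRCh37 chr16:56966054-56978776, plus strand), a membrane protein that gathers the degradation complex around the ligase SYVN1, had 9502, 6039 and 9432 normalised counts with IgA. It had 1249, 1311 and 1494 with IgG and 1315, 1203 and 1454 in untreated cells. The groups did not overlap, and IgA replicate 2 was again the lowest of the IgA libraries. Its log2 fold change of 2.62 (SE 0.165, adjusted p = 6.75e-07), or 6.16-fold, was the largest of the members.

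The promoters of these 2 genes hold the classic target sequences of the response. ERSE, the ER stress response element, was searched as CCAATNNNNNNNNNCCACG and ERSE-II as ATTGGNCCACG, on both strands of the 250 bases before each gene start in RefSeq's promoter table for GRCh38.p14, a later build than the GRCh37 of the counts. Of the 34 members, 30 matched that table. The windows below, 5′ to 3′ on the gene's strand with the fixed letters of the element in capitals, show members with an element across the range of responses. An element on the opposite strand appears as its reverse complement, beginning with CGTGG.
HSPA5: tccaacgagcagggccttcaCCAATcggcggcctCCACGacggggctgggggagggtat
HERPUD1: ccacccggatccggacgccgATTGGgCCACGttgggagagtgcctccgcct
SDF2L1: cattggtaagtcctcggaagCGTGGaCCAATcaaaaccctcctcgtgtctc
HYOU1: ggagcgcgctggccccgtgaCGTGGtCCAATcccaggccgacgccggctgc
HSP90B1: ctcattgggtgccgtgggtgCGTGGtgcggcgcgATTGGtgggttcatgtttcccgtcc
CALR: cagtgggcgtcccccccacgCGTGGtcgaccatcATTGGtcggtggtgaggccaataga
XBP1: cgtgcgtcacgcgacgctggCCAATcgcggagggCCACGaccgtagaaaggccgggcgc

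In GRCh38.p14 the HSPA5 window lies at chr9:125241371-125241429 on the minus strand, its ERSE 66 to 48 bases before the start. The HERPUD1 window lies at chr16:56932005-56932055 on the plus strand, its ERSE-II 117 to 107 bases before the start. Those of SDF2L1 (chr22:21642094-21642144), HSP90B1 (chr12:103930301-103930359) and CALR (chr19:12938364-12938422) are on the plus strand. Those of HYOU1 (chr11:119057360-119057410) and XBP1 (chr22:28800583-28800641) are on the minus strand. HSP90B1 and HYOU1 each hold 2 such elements. The HSP90B1 window shows the one 89 to 71 bases before the start, and the HYOU1 window the one 185 to 175 bases before it. All windows are upstream of the gene start given in that table, and their overlap with transcripts that start elsewhere was not examined.

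ERSE was found in 8 members, namely HSPA5, HSP90B1, CALR, CANX, CRELD2, PDIA6, XBP1 and ERO1LB. ERSE-II was found in HERPUD1, SDF2L1 and HYOU1. One or the other was in 11 of the 30 members searched (36.7%) and in 43 of 27305 genes with a promoter in the table (0.157%). ERSE was in 0.0916% of these genes and ERSE-II in 0.0659%. The core of the XBP1 element, TGACGTGG, was found in DNAJC10 and HYOU1 and in 0.780% of all genes, and in HYOU1 it overlapped an ERSE-II. The core of the ATF4 element, TGATGNAA, was found in HERPUD1 and in 3.89% of all genes. Members with ERSE or ERSE-II had a median log2 fold change of 0.82 against IgG, with 9 of 11 called higher. Members searched without either had a median of 0.67, with 16 of 19 called higher. The range with an element ran from 0.33 for CRELD2 to 2.62 for HERPUD1, and the range without one, from 0.09 for WFS1 to 1.56 for MANF, overlapped it.

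**Figure D3:**
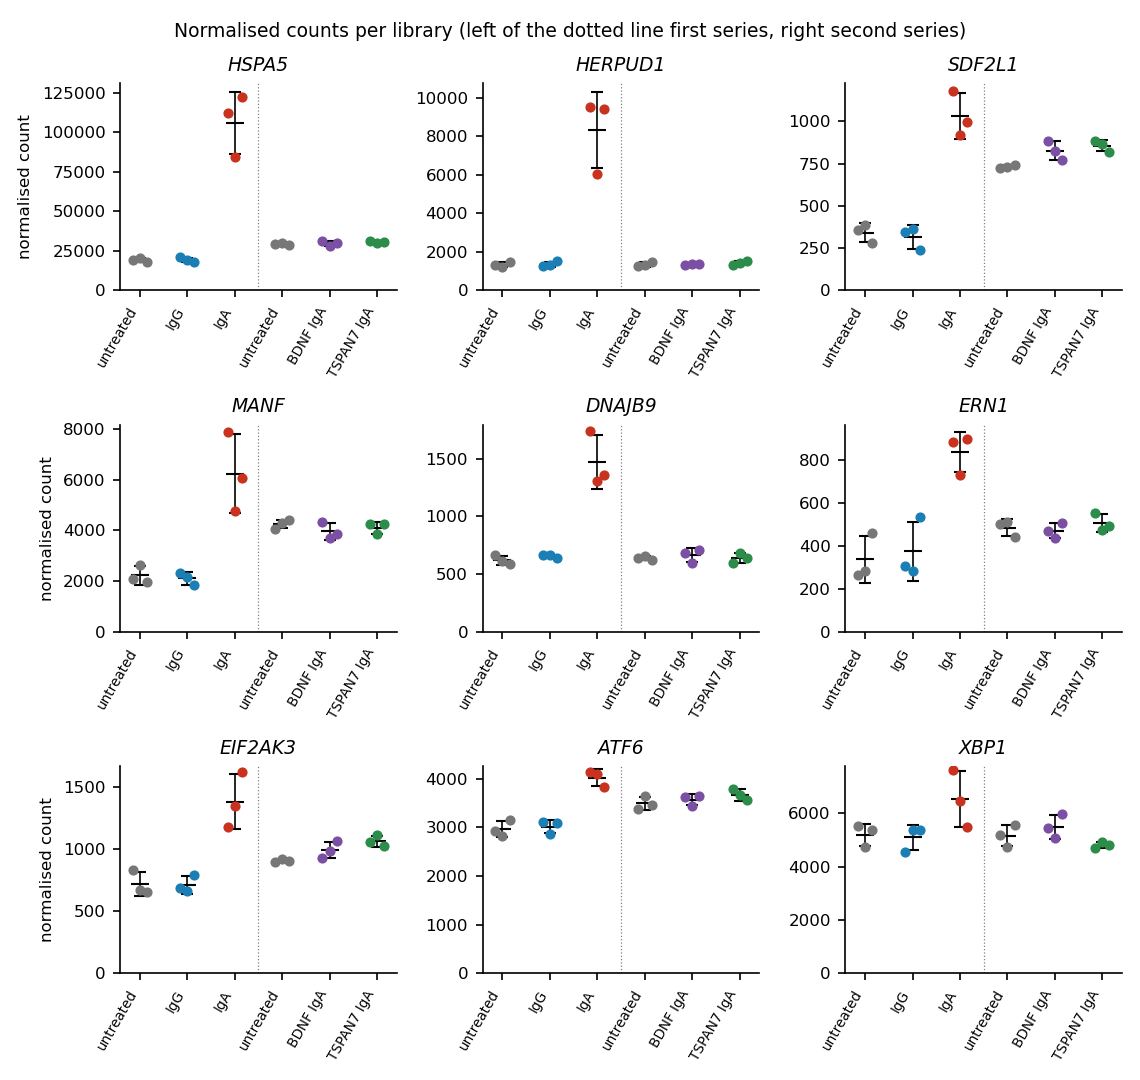
Normalised counts of 9 members in every library, with mean and SD of 3 (black), untreated cells grey, IgG blue, IgA red, BDNF IgA purple and TSPAN7 IgA green. For HSPA5, HERPUD1, SDF2L1, MANF, DNAJB9, ERN1, EIF2AK3 and ATF6 the 3 IgA points stand above all IgG points, and for XBP1 the lowest IgA point (5507) meets the untreated range.

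Among the sensors and transcription factors, 4 of 5 were called higher against IgG. ERN1 (GRCh37 chr17:62116440-62208179, minus strand), which encodes IRE1, had 882, 731 and 899 normalised counts with IgA. With IgG it had 306, 283 and 533, and in untreated cells 265, 284 and 461. Replicate 3 was the highest library in each of the IgG and untreated groups, and the IgA libraries still lay above it. The log2 fold change was 1.17 (SE 0.252, adjusted p = 0.00552). EIF2AK3 (GRCh37 chr2:88856259-88991036, minus strand), which encodes PERK, had 1183, 1348 and 1622 with IgA, 685, 662 and 796 with IgG, and 835, 668 and 657 in untreated cells. It rose by 0.95 on the log2 scale over IgG (SE 0.145, adjusted p = 0.000692). CREB3L2, a transcription factor cut at the Golgi in the manner of ATF6, rose by 0.94 (SE 0.140, adjusted p = 0.000615).

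ATF6 and XBP1 had the smallest log2 fold changes among these regulators. ATF6 had 4141, 4095 and 3821 normalised counts with IgA, 3106, 2855 and 3083 with IgG, and 2930.0, 2822 and 3141 in untreated cells. The groups did not overlap, and the log2 fold change of 0.42 (SE 0.092) passed the test at an adjusted p of 0.0062. Scaled to library size alone, which set the median of all genes to −0.25, ATF6 was at 0.18 with an adjusted p of 0.315. XBP1 had 7626, 6475 and 5507 with IgA, 4547, 5388 and 5369 with IgG, and 5510.0, 4724 and 5368 in untreated cells. Its log2 fold change of 0.36 over IgG missed the threshold at an adjusted p of 0.0529, and DESeq2 called it (0.0339). Without IgA replicate 3, the library with the high mitochondrial share, XBP1 was at 0.46 with an adjusted p of 0.00804.

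Of 10 HSP70 and HSP90 chaperones and co-chaperones, 9 were called higher against IgG, with a median log2 fold change of 0.94. SDF2L1 (GRCh37 chr22:21996591-21998588, plus strand), a partner of ER J-domain proteins, had 1181, 919 and 998 normalised counts with IgA, 347, 365 and 236 with IgG, and 359, 386 and 277 in untreated cells. It rose by 1.71 on the log2 scale over IgG (SE 0.188, adjusted p = 7.11e-05), with no overlap. DNAJB9, a J-domain protein also known as ERdj4 and a commonly used reporter of IRE1 activity, had 1739, 1309 and 1358 with IgA. It had 662, 664 and 643 with IgG and 661, 615 and 584 in untreated cells. Its log2 fold change was 1.16 (SE 0.127, adjusted p = 6.64e-05).

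The other members of this group that were called under all settings were DNAJC3, a J-domain inhibitor of PERK, at 1.01, HSP90B1, the ER form of HSP90, at 0.96, and HYOU1, an exchange factor for HSPA5, at 0.91. DNAJB11 was at 0.86 and HSPA13 at 0.78. SIL1, another exchange factor, was called at 0.54, and lost its call without IgG replicate 1 (adjusted p = 0.0634) and without IgG replicate 2 (0.0852). DNAJC10, a J-domain disulfide reductase, missed the threshold at 0.27 (adjusted p = 0.0545), and passed it with DESeq2 (0.0293) and without IgA replicate 1 (0.34, adjusted p = 0.023).

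All 7 lectin chaperones and disulfide enzymes were called higher against IgG, with smaller changes. PDIA4 was at 1.01 on the log2 scale, CALR, the lumenal lectin calreticulin, at 0.82 and PDIA6 at 0.69. ERO1LB, an oxidase that recharges disulfide isomerases, was at 0.52, and PDIA3, P4HB and CANX, the membrane lectin calnexin, lay between 0.37 and 0.38. The calls of ERO1LB, P4HB and CANX were narrow. PDIA3, at an adjusted p of 0.0102, lost its call against IgG only when scaled to library size alone. Its call against untreated cells was lost under 6 of the 17 alternatives. CANX lost its call without IgG replicate 2 (adjusted p = 0.0534), ERO1LB without IgG replicate 1 (0.0619) or 2 (0.114), and P4HB without IgG replicate 1 (0.0545), 2 (0.0572) or 3 (0.0669). Of the exon bases of PDIA6, 25.2% overlap ATP6V1C2 on the opposite strand, and the counting is not stated to use strand.

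Of 7 members of ER-associated degradation, 5 were called higher against IgG. SEL1L, the adaptor of the ligase SYVN1, rose by 0.67 (SE 0.111, adjusted p = 0.00114). DERL3, a derlin of the retrotranslocation channel, had 169, 97.9 and 147 normalised counts with IgA, 42.9, 65.6 and 27.4 with IgG, and 65.4, 42.9 and 48.3 in untreated cells. Its log2 fold change of 1.59 (SE 0.350, adjusted p = 0.006) rests on low counts, and 77.0% of its exon bases overlap SMARCB1 on the opposite strand, so its value is uncertain. EDEM1, a lectin that marks glycoproteins for degradation, was called at 0.54, and its IgA libraries spread from 1384 to 2469. Without IgA replicate 3, the highest of them and the library with the high mitochondrial share, EDEM1 was at 0.31 over IgG (adjusted p = 0.0778) and at 0.30 over untreated cells (0.0873), and lost both calls. Without IgG replicate 1, 2 or 3 it was between 0.51 and 0.55 over IgG and lost its call as well (adjusted p = 0.0707, 0.0844 and 0.0974). DERL2 was called at 0.39 with an adjusted p of 0.0494, and lost the call under 10 of 17 alternatives, among them leaving out any 1 library other than IgA replicates 2 and 3, when its adjusted p ran from 0.0592 to 0.171. SYVN1 at 0.25 (adjusted p = 0.0872) and DERL1 at 0.22 (0.197) did not pass. Both passed without IgA replicate 3, SYVN1 at 0.29 (adjusted p = 0.0448) and DERL1 at 0.32 (0.0351), and DERL1 was at −0.01 when scaled to library size alone.

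MANF, a small secreted survival factor that binds HSPA5, had 7875, 4769 and 6050.1 normalised counts with IgA, 2334, 2175 and 1839 with IgG, and 2064, 2650.1 and 1974 in untreated cells. It rose by 1.56 (SE 0.174, adjusted p = 7.65e-05), and the groups did not overlap. CRELD2, another secreted ER stress protein, was at 0.33 against IgG and did not pass (adjusted p = 0.110). SEC24D, a cargo adaptor of the COPII coat, had 1987, 1598 and 2997 with IgA, 1102, 958 and 719 with IgG, and 753, 900.4 and 764 in untreated cells. Its log2 fold change was 1.24 over IgG (SE 0.208, adjusted p = 0.00129) and 1.44 over untreated cells, and IgA replicate 3 was the highest. SEC61B, a subunit of the translocation channel, was called at 0.61, and lost its call without IgA replicate 1 (adjusted p = 0.0694), IgG replicate 2 (0.0566) or IgG replicate 3 (0.0792). WFS1, an ER membrane protein of calcium balance, did not differ beyond the replicate spread, at 0.09 (95% interval −0.26 to 0.45, adjusted p = 0.721).

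Against untreated cells the values were close to those against IgG. HERPUD1 was 2.65 higher on the log2 scale, HSPA5 2.48, SDF2L1 1.60, MANF 1.48, DERL3 1.40, ERN1 1.31 and DNAJB9 1.24. The 6 members not called were SYVN1, DERL1, DERL2, XBP1, SIL1 and WFS1. CRELD2 and DNAJC10 were called here and not against IgG, while DERL2 and SIL1 were called against IgG alone, and these changes of side were not tested as differences. CRELD2, at 0.43 with an adjusted p of 0.0452, lost its call without any 1 library other than IgG replicate 3, when its adjusted p ran from 0.0537 to 0.184. In each comparison 19 members kept their call under all 17 alternative settings, and they were the same 19 genes.

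With IgG the members lay close to the untreated level. Between IgG and untreated cells 0 of the 34 members were called by edgeR or DESeq2, and 0 had an unadjusted p under 0.05. Of all genes 0.494% had such a p, and 0% of all genes were called in either direction. Without any difference a share of about 0.05 of all genes would have such a p, so the test was conservative here. Its spread was estimated from all 9 libraries, the more variable IgA replicates among them. Fitted with only the 6 libraries compared, 0 members were called as well. The log2 fold changes ran from −0.19 for DERL3 to 0.20 for SEC24D, with 17 members above 0 and 17 below. For 0 members did all 3 IgG libraries lie above or below all 3 untreated libraries, while 3.32% of all genes lay above and 3.43% below. HSPA5 was at 0.01 (95% interval −0.27 to 0.30) and HERPUD1 at 0.03 (−0.31 to 0.37), so rises of the size seen with IgA lay well outside these intervals.

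**Figure D4:**
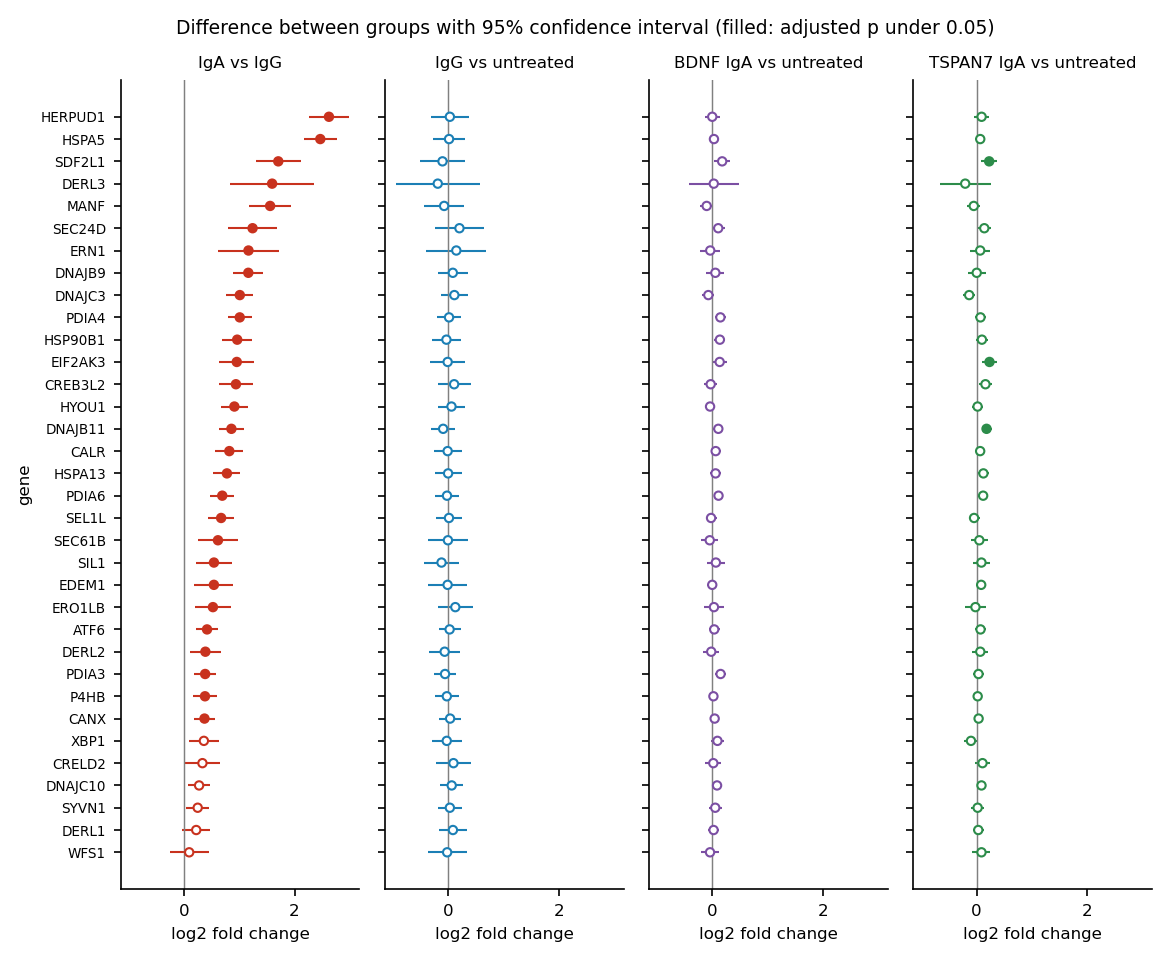
Log2 fold changes of the 34 members with 95% confidence intervals in 4 comparisons, on 1 axis, ordered by the change with IgA over IgG. Filled points passed an adjusted p of 0.05, which 28 members did for IgA over IgG, 0 for IgG or BDNF IgA over untreated cells, and 3 for TSPAN7 IgA over untreated cells.

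In the second series the differences in unfolded protein response genes were small, between −0.21 and 0.23 on the log2 scale against untreated cells. Its replicates were more alike, with a common dispersion of 0.00303 against 0.0307 in the first series, so smaller differences could pass. The members held 0.728% to 0.797% of all counts in these 9 libraries. BDNF IgA against untreated cells called 0 members higher and 0 lower, where 4.49% of all genes were called higher and 3.18% lower. The unadjusted p was under 0.05 for 6 members and for 22.1% of all genes, DESeq2 called 1, and 4 were called without BDNF IgA replicate 2. For 5 members all 3 BDNF IgA libraries lay above the untreated ones (12.8% of all genes) and for 1 all lay below (12.0%). The log2 fold changes ran from −0.10 for MANF to 0.18 for SDF2L1, with 23 members above 0 and 11 below. HSPA5 had 31379, 28225 and 29931 normalised counts with BDNF IgA and 29034, 30187 and 28635 without antibody, a log2 fold change of 0.03 (95% interval −0.06 to 0.12). HERPUD1 had 1299, 1370.4 and 1351 against 1237, 1311 and 1481, with an interval from −0.14 to 0.14. For both genes the groups overlapped.

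TSPAN7 IgA against untreated cells called 3 members higher and 0 lower, where 4.46% of all genes were called higher and 4.08% lower. EIF2AK3 had 1059, 1115 and 1026 normalised counts with TSPAN7 IgA against 894, 919 and 908, a log2 fold change of 0.23 (SE 0.065, adjusted p = 0.0263). SDF2L1 had 884, 864 and 822 against 723, 732 and 739.6, also 0.23 (SE 0.068, adjusted p = 0.04). DNAJB11, a J-domain partner of HSPA5, had 5942, 5932 and 5841 against 5144, 5459 and 5041, or 0.18 (SE 0.044, adjusted p = 0.0119). In these 3 genes each TSPAN7 IgA library lay above each untreated library. The calls depended on single libraries: 0 members were called without TSPAN7 IgA replicate 2, untreated replicate 1 or untreated replicate 3, 1 without TSPAN7 IgA replicate 1 or untreated replicate 2, and 5 without BDNF IgA replicate 2.

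HSPA5 had 31264, 30271 and 30408 with TSPAN7 IgA, all above the untreated libraries, and its log2 fold change of 0.07 (95% interval −0.03 to 0.16) did not pass. HERPUD1 had 1336, 1442 and 1516, overlapping the untreated libraries, with an interval from −0.05 to 0.23. For 14 of the 34 members (41.2%) all 3 TSPAN7 IgA libraries lay above the untreated ones, against 14.4% of all genes. For 2 members, DNAJC3 and DERL3, all lay below (14.0% of all genes). An unadjusted p under 0.05 was found for 9 members and for 22.1% of all genes. The median log2 fold change was 0.07, with 28 members above 0 and 6 below. DNAJB9 had 598, 681 and 643 with TSPAN7 IgA, 684, 593 and 713 with BDNF IgA and 637, 657 and 625 in untreated cells, with overlap throughout. ERN1 had 553, 473 and 494 with TSPAN7 IgA, 471, 438 and 505 with BDNF IgA, and 501, 513 and 442 without antibody. ATF6 had 3785, 3663 and 3553, then 3624, 3434 and 3650.5, then 3381, 3639 and 3453 in the same order, and none of these differences passed.

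Between the 2 antigen-specific antibodies 1 member was called higher and 1 lower with TSPAN7 IgA, where 3.42% and 4.50% of all genes were called. All 3 TSPAN7 IgA libraries lay above all 3 of BDNF IgA for 4 members (11.5% of all genes) and below them for 1 (12.1%). XBP1 had 4686, 4920.1 and 4824 normalised counts with TSPAN7 IgA and 5445, 5076 and 5967 with BDNF IgA, and the groups did not overlap. Its log2 fold change was −0.19 (SE 0.058, adjusted p = 0.0455), and untreated libraries at 5196, 4744 and 5547 lay across both. CREB3L2 was 0.19 higher (SE 0.058, adjusted p = 0.0467), with overlap. XBP1 lost its call without any 1 library of the series other than BDNF IgA replicate 2 and untreated replicates 2 and 3, its adjusted p then running from 0.068 to 0.298, and CREB3L2 without any 1 other than BDNF IgA replicate 2 (0.0501 to 0.247). The responses in the 2 series were not tested against each other, since the libraries were counted in separate files with their own untreated cells.

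Related genes of the same pathways that are no members had smaller median changes with IgA. Over all genes tested, 12.6% were called higher and 11.6% lower against IgG. Against IgG, 8 of 20 other ER folding enzymes were called higher and 0 lower, with a median log2 fold change of 0.25, led by ERP44 (0.65), ERO1L (0.58) and PPIB (0.49). Of 20 genes of the translocon, signal peptidase and signal recognition receptor, 7 were higher and 0 lower (median 0.26), with SEC11C at 0.70, SEC61G at 0.69 and SSR4 at 0.50. Of 17 COPII coat genes tested 5 were higher and 1 lower (median 0.21), with SEC13 at 0.68, LMAN1 at 0.51, PREB at 0.34 and SEC16A, which marks ER exit sites, at −0.60. Of 20 other degradation genes 4 were higher and 3 lower (median 0.19), with VIMP at 0.50, UBXN6 at 0.41 and UFD1L at 0.36, and RNF139 at −0.46, EDEM3 at −0.43 and UBE2G2 at −0.41. Of 16 other sensors, proteases and regulators 3 were higher and 0 lower (median 0.06), namely MAP3K5, a kinase that relays IRE1 signals, at 1.30, NFYB at 0.44 and TRAF2 at 0.41. Against untreated cells, with the same IgA libraries, 12.9% of all genes were called higher and 12.1% lower. The counts higher and lower were 6 and 0 for folding, 7 and 0 for the translocon and 7 and 1 for COPII. They were 3 and 3 for degradation, and 3 and 1 for regulators. IgG over untreated cells gave no call by edgeR in any list, where 0% of all genes were called.

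The PERK and ATF4 arm moved in part. With IgA over IgG 5 of its 16 genes were called higher and 0 lower (median 0.19), where 12.6% and 11.6% of all genes were called. The largest rises were PPP1R15A, which encodes GADD34, at 2.24, DDIT3, which encodes the death-promoting factor CHOP, at 2.17 and ATF3 at 1.89. DDIT3 had 3585, 3009.9 and 3660.1 normalised counts with IgA, 573, 607 and 1097 with IgG, and 568, 464 and 999 in untreated cells, with replicate 3 again the highest of both control groups. ATF4, which is controlled largely through its translation, had 12737, 11697 and 11667 against 10202, 11154 and 13322 with IgG, overlapping, and was at 0.06 (adjusted p = 0.758). In the second series 6 of the 16 genes were called higher and 1 lower with BDNF IgA over untreated cells. With TSPAN7 IgA 7 were higher and 1 lower, against the same untreated libraries. Over all genes, 4.49% were higher and 3.18% lower with BDNF IgA, and 4.46% and 4.08% with TSPAN7 IgA. ATF4 was 0.15 higher with BDNF IgA (adjusted p = 0.0283) and 0.18 with TSPAN7 IgA (0.00855). DDIT3 was at 0.36 and 0.37 and CHAC1, a glutathione-degrading target of ATF4, at 0.51 and 0.57, while DDIT4 was at −0.26 and −0.31. The largest of the 16 values with TSPAN7 IgA was 0.82, so CHAC1 was not the top of the list there.

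Cytosolic heat shock genes, which answer to unfolded protein outside the ER, also rose in part with IgA. Against IgG 7 of 14 were called higher and 0 lower (median 0.44), where 12.6% and 11.6% of all genes were called. HSPA6 had 909, 395 and 769 normalised counts with IgA, 15.9, 12.7 and 0 with IgG, and 10.4, 11.8 and 12.1 in untreated cells, a log2 fold change of 6.10 over IgG. HSPA1A had 5152, 2729 and 8737 against 1758, 1783 and 1398, or 1.75, and HSPA1B was at 2.24. These 3 genes have close paralogs, so reads may have been split among them or lost. In the second series 1 of the 14 was called higher and 4 lower with BDNF IgA, and 2 and 0 with TSPAN7 IgA. The shares of all genes were 4.49% and 3.18% with BDNF IgA and 4.46% and 4.08% with TSPAN7 IgA. The 14 genes lay between −0.68 and 0.40 with BDNF IgA and between −0.18 and 0.37 with TSPAN7 IgA. With TSPAN7 IgA over BDNF IgA 8 were called higher and 0 lower, where 3.42% and 4.50% of all genes were called. HSPB1 was 0.40 and 0.37 higher, and HSPA1A was −0.26 with BDNF IgA (adjusted p = 0.0105) and −0.05 with TSPAN7 IgA (0.702).

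Some folding and translocation genes outside the members were called in the second series. Over all genes, 4.49% were called higher and 3.18% lower with BDNF IgA, and 4.46% and 4.08% with TSPAN7 IgA. Of the 20 other folding enzymes 0 were higher and 2 lower with BDNF IgA, TXNDC5 at −0.37 and ERP29 at −0.17, and 2 were higher and 3 lower with TSPAN7 IgA, with TXNDC5 at −0.33. Of the 20 translocon genes 0 and 3 were called with BDNF IgA and 2 and 1 with TSPAN7 IgA. SRPRB, a subunit of the signal recognition particle receptor, was at −0.35 and −0.24. The 18 COPII coat genes lay between −0.38 and 0.11 with BDNF IgA and between −0.14 and 0.13 with TSPAN7 IgA, and the 20 other degradation genes between −0.12 and 0.15 and between −0.13 and 0.20, with no adjusted p under 0.05. Of the other sensors and regulators MBTPS2, a protease that cuts ATF6, was called with TSPAN7 IgA at 0.21 (adjusted p = 0.0473).

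**Figure D5:**
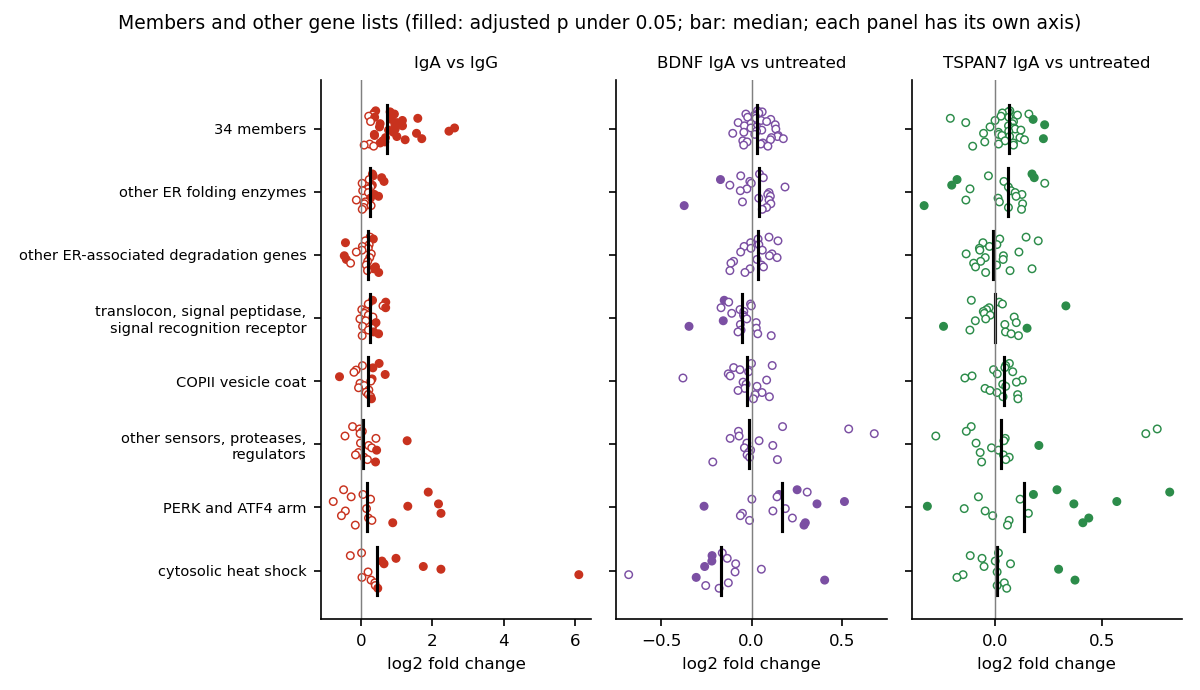
Log2 fold changes of the 34 members and of 7 lists of related genes, with filled points for an adjusted p under 0.05 and a black bar at each median. For IgA over IgG the members' median is 0.73 and those of the lists lie between 0.06 and 0.44, while in the panels for BDNF and TSPAN7 IgA, drawn on narrower axes, the members' medians are 0.03 and 0.07.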

How the data were processed

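The authors trimmed reads, aligned them to GRCh37 and counted them per gene, and the raw counts they deposited were used without other scaling. The submitters' notes name bcl2fastq 2.20.0.422, cutadapt 1.8.1 and HTSeq 0.6.1. The study's methods instead name featureCounts as the counter for OVCAR3 cells, and which of them made these counts is not settled. The strand setting of the counting is not given in the sources used here. The second series repeated 2055 of 57820 rows exactly, which were removed. Groups and replicate numbers came from the sample titles. The study describes the first series as 3 experiments and gives n = 3 for the second without saying what the replicates were, so p-values measure the spread between these libraries, which in the second may be technical. Deviations of same-numbered IgG and untreated replicates of the first series correlated at 0.136, 0.110 and 0.457. Differently numbered ones ran from −0.403 to 0.310, so only replicate 3 stood above all of these. A replicate block left 0 members called between IgG and untreated cells.

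The members and the lists were chosen with earlier results of these data known. Each series was fitted once with its 9 libraries in edgeR 4.0.16 under R 4.3.3 (TMM scaling, filterByExpr, two-sided quasi-likelihood F test), with Benjamini-Hochberg adjustment over all genes and calls at an adjusted p under 0.05. SE was taken as |log2 fold change|/√F. For display, each library was scaled to its series' average effective size, giving normalised counts. Levels per kilobase used the canonical transcript of each gene. Described with the value in every library were HSPA5, HERPUD1, DNAJB9, SDF2L1, XBP1, ATF6, ERN1 and EIF2AK3, and in each comparison the 5 largest rises and 5 largest falls among called members without overlap of the groups. From the lists, the 3 largest rises and falls among called genes for IgA over IgG were named, and ATF4, DDIT3, HSPA6 and HSPA1A. In the second series some called genes were named, CHAC1, HSPB1, SRPRB and DDIT4 among them, and not all of the largest changes.

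Within every group, replicate counts departed from sampling noise (chi-square per degree of freedom 67.0 to 232 between IgA replicates of the first series, and 3.91 to 25.0 in the other groups). The test was run on simulated counts with known changes, drawn with the same spread in all groups. That check therefore cannot show how the test behaves with the wider spread between the IgA replicates. Alternatives were DESeq2 1.42.0, RLE scaling, library size alone, other filters, omission of mitochondrial genes, a replicate block, the 6 libraries compared, and leaving out each library. Precision was taken from replicates, because counted reads carry no molecular identifiers.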

Additional observations from a re-analysis of the deposited data

How the results depend on the processing

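With IgA, the count of members called higher against IgG ranged from 19 (library size alone) to 30 and against untreated cells from 19 to 30, with 0 called lower under each of the 17 alternatives. Leaving out 1 library gave 21 to 30 and 22 to 29. Fitted with only the 6 libraries compared, 24 members were called higher against IgG and 23 against untreated cells. Over all genes that fit called 1599 higher and 1326 lower against IgG, and 1789 and 1512 against untreated cells. Library size alone moved the median of all genes from −0.01 to −0.25 against IgG and −0.22 against untreated cells, and calls over all genes from 2265 higher and 2095 lower to 873 and 3631 (against untreated cells from 2316 and 2187 to 1001 and 3296). Relative to that shift the members' medians were still above, at 0.49 and 0.51. Under it DERL1 turned to −0.0067 against IgG, WFS1 to −0.15 and −0.14 against IgG and untreated cells, and HERPUD1 with BDNF IgA to 0.013.

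In the second series the count of members called higher with BDNF IgA was 1 with DESeq2, 2 with library size alone and 3 without a filter, and 0 to 4 when 1 library was left out. With TSPAN7 IgA it was 5 when only the 6 libraries compared were fitted and 0 to 5 when 1 library was left out. Between the antibodies the count higher was 0 with library size alone and 0 with only the 6 libraries, and leaving out 1 library gave 0 to 1 higher and 0 to 2 lower. Values near 0 changed sign when 1 library was left out. With IgG over untreated cells HSPA5 ran from −0.049 to 0.064 and HERPUD1 from −0.049 to 0.098. With BDNF IgA HSPA5 ran from −0.010 to 0.063 and HERPUD1 from −0.058 to 0.074. WFS1 with IgA over IgG ran from −0.087 (without IgG replicate 3) to 0.217. The causes were not tested.

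Same-numbered untreated and IgG replicates correlated at 0.110 to 0.457 in their deviations, and differently numbered ones at −0.403 to 0.310. For the other pairs of groups, same-numbered replicates correlated between −0.0993 and 0.0510 for IgA with either control. In the second series they correlated between −0.0555 and 0.150. With a replicate block 28 members were called higher against IgG, 27 against untreated cells and 4 with TSPAN7 IgA, and the other counts, 0 for IgG over untreated cells among them, were as without it. Among the members, the smallest log2 fold change called against IgG was 0.37 (CANX) and the largest not called was 0.36 (XBP1), with 3 libraries a group.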

Other observations

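Outside the members, 32 genes held ERSE or ERSE-II in the 250 bases before their start, and 19 of them were tested. These genes were chosen after values had been seen, and their values are a description. With IgA over IgG 5 were called higher (12.6% of all genes were) and 3 lower (11.6%), with a median log2 fold change of 0.23. The 5 were ZNF143, a transcription factor, at 1.06, PLS3, an actin-bundling protein, at 0.82, SHCBP1 at 0.46, EIF2A at 0.37 and CAMTA1 at 0.30, and the 3 were ZNF17 at −0.87, SYNPO at −0.78 and CNKSR1 at −0.63. The 11 genes not called lay between −0.22 (TRIM5) and 0.42 (FICD), and included genes of the secretory pathway, namely SERP1 at 0.23, FICD, which AMPylates HSPA5, NUCB1 at 0.26 and ALG12, a mannosyltransferase of N-glycan synthesis, at −0.08. The 11 members with an element, from the list drawn up with earlier results known, had a median of 0.82, which is likewise a description.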
